A study of Nematostella vectensis with 84 samples.

Results

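The genes described here are 80 gene models of the starlet sea anemone Nematostella vectensis whose levels were lower at the later streptomycin time points than at streptomycin T0, without a like difference in the other treatments. They were chosen by a rule on the measured values themselves, out of 23510 gene models counted. Of these, 5912 had a mean level of at least 20 CPM (read counts scaled to a common library size), 505 of those met the thresholds on direction, and the 80 with the widest gap between treatments were kept. The data came from 84 RNA libraries of adult oral discs with their tentacles, in 14 groups of 6 libraries with the letters A to F. Streptomycin had the time points T0 to T3, and the labels describe these as lengths of exposure, each followed by the same recovery. Calcium-free KSW and cytochalasin D had the time points T0 to T4, described as hourly points of recovery, so an equal time point number in streptomycin and in the other treatments does not mean an equal time. How long each exposure lasted, and on which side of the treatment T0 lies, the sources used here do not give. The design text counts 3 replicates for 2 conditions, whereas the labels give 6 letters and name no further condition. Whether the 6 libraries of a group stem from separate animals is not stated in the labels, and p-values then cover only how these libraries vary, possibly for technical reasons.

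Sea anemone tentacles carry hair bundles, mechanosensory structures made of actin-filled stereocilia and cilia that detect vibration from swimming prey. Streptomycin is an aminoglycoside antibiotic that blocks mechanotransduction and damages hair cells in vertebrates. Calcium-free medium breaks the extracellular links between stereocilia in vertebrate hair cells, and cytochalasin D blocks actin polymerization. The comparison of the treatments therefore places 3 kinds of injury to such cells side by side in the same tissue.

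The count table names its genes only by NVE numbers, and 0 of the 23510 identifiers, and so 0 of the 80 genes, matched the RefSeq gene table of assembly jaNemVect1.1. No function, cell type or sequence is therefore given for any of them, the labelled tissue could not be checked against its markers, and a few genes stand below by identifier alone. These few are the 2 genes with the lowest value of the rule and up to 2 genes per tested comparison, namely those past the threshold with the largest fold change or, where none passed, the gene with the smallest p.

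The rule compared levels within each treatment. A gene's difference was the mean of its later group means of log2(CPM + 5) minus its T0 mean, with CPM computed on library totals without the 10 most abundant genes. Genes were kept where this difference was -0.3 or lower in streptomycin and above -0.3 in both other treatments. The 80 genes then had the lowest streptomycin difference minus the smaller of the other differences. These values describe how the genes were chosen and carry no test. On this scale the streptomycin difference of the 80 genes ran from -1.24 to -0.30 with a median of -0.65, and 5 genes were at -1 or lower. The calcium-free KSW difference ran from -0.29 to 0.97 with a median of 0.15, and the cytochalasin D difference ran from -0.28 to 0.78 with a median of 0.15. Over the 5912 genes above the CPM minimum, the medians were -0.03 in streptomycin, -0.05 in calcium-free KSW, and -0.03 with cytochalasin D. Above 0, and so opposite in sign to streptomycin, were 63 of the 80 genes in calcium-free KSW, and 62 with cytochalasin D. The limit of the list fell within a dense range of values. The last gene inside had a gap between treatments of -0.5625 and a streptomycin difference of -0.37, and the first gene outside had a gap of -0.5602 and a streptomycin difference of -0.72. With TMM-scaled CPM in the rule, 34 of the 80 genes would be chosen again, since 45 of them then fell under the CPM minimum. That CPM kept the 10 most abundant genes, with 29.9% of all reads, in the totals. Only 4459 genes then met the unchanged minimum, so the loss is not that of the TMM factors alone. Still, 75 of the 80 had a streptomycin difference of -0.3 or lower. Without streptomycin T0 library A, 47 would be chosen again, and without T0 F, 53.

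The 80 genes were mostly of low abundance. Their mean level ran from 20.1 to 97.7 CPM with a median of 27.6, against a median of 46.5 CPM over the 5912 genes, and 56 of the 80 were under 40 CPM, against 2531 of the 5912. Total counts were 194043 to 354795 in the streptomycin libraries, 217221 to 591692 in calcium-free KSW and 272537 to 584632 in cytochalasin D. A single read in a streptomycin library was therefore worth 4.03 to 9.46 CPM. The median gene of the list had 2 to 8 reads in a streptomycin library, 4 to 15 in a calcium-free KSW library and 5 to 15.5 in a cytochalasin D library. A single gene in a single library is thus known only to a few reads, and the sums and medians over the list are better determined than any 1 gene. In bulk tissue, fewer cells of a type and less RNA per cell cannot be told apart.

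Summed over the 80 genes, the level at streptomycin T0 was the highest of the 14 groups, and the 3 later streptomycin groups were the 3 lowest. The 6 libraries at streptomycin T0, in letter order, held 4201, 3287, 2913, 4227, 3236 and 3506 CPM for the 80 genes together. At T1 they held 1988, 1982, 2188, 2513, 2189 and 2286 CPM, at T2 1930, 1614, 2485, 2474, 2267 and 2616 CPM, and at T3 2190, 1996, 2001, 2443, 2540 and 2137 CPM. All 18 later libraries, from 1614 to 2617 CPM, lay below all 6 T0 libraries, from 2913 to 4227 CPM, which is the separation that the rule selected on. The mean of the T0 group was 3562 ± 540 CPM (SD, n = 6). The means of the later groups were 2191 ± 199 CPM for T1, 2231 ± 386 CPM for T2 and 2218 ± 227 CPM for T3 (SD, n = 6 each). The 3 later exposure groups thus lay within 1 SD of each other, and the lower level was already present at the first of them.

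**Figure D1:**
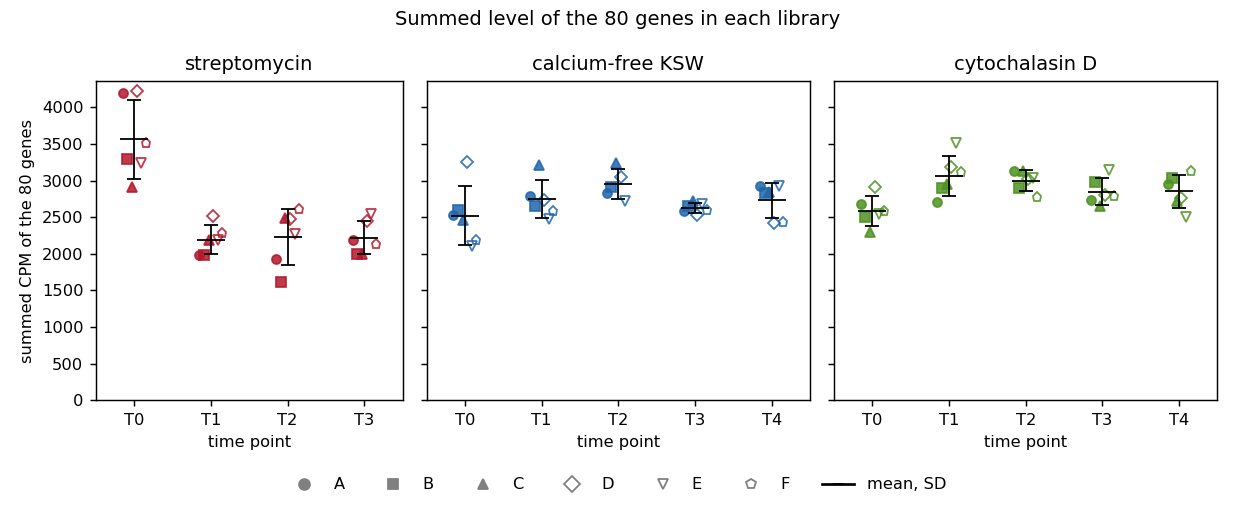
Summed CPM of the 80 genes (vertical axis, linear from 0) in each library by time point (horizontal axis), 1 panel per treatment, with markers for the letters A to F and bars for the group mean and SD. The 6 streptomycin T0 libraries sit between 2913 and 4227 CPM and the 18 later ones between 1614 and 2617 CPM, whereas the calcium-free KSW and cytochalasin D groups have means between 2521 and 3062 CPM.

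In the other treatments the later group means of the same sum were all higher than their T0 mean, by less than the streptomycin groups differed from theirs. From T0 to T4, calcium-free KSW had 2521 ± 404, 2743 ± 258, 2950 ± 202, 2627 ± 71.8 and 2728 ± 240 CPM (SD, n = 6, but 5 for T2). The library calcium-free KSW T2 F, which the rule leaves out, held 3095 CPM. Over the same time points cytochalasin D had 2583 ± 201, 3062 ± 277, 2998 ± 140, 2849 ± 180 and 2851 ± 231 CPM (SD, n = 6 each). Later libraries ran from 2416 to 3237 CPM in calcium-free KSW (n = 23) and from 2507 to 3506 CPM in cytochalasin D (n = 24), so a few of the lowest overlapped the highest later streptomycin libraries.

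The T0 groups already differed between treatments. At T0 the median gene of the list was 0.44 higher in streptomycin than in calcium-free KSW on the log2(CPM + 5) scale, and 71 of the 80 genes were higher. Against cytochalasin D at T0 the median difference was 0.47, with 68 of the 80 higher in streptomycin. Over the 5912 genes the corresponding T0 medians were -0.14 and -0.09. At the later time points the list lay below the other treatments. The median difference of streptomycin from calcium-free KSW was -0.35 at T1, -0.50 at T2 and -0.26 at T3, where 57, 69 and 64 of the 80 genes were lower in streptomycin. Over the 5912 genes those medians were -0.22, -0.15 and -0.09. From cytochalasin D it was -0.42 at T1, -0.44 at T2 and -0.30 at T3, with 67, 63 and 55 of the 80 lower, against -0.19, -0.06 and -0.05 over the 5912 genes. The gap that defines the list thus has a higher streptomycin T0 on one side and lower later levels on the other. Beside the 5912 genes these sides were unlike. At T0 the list medians lay above the other treatments and those of the 5912 genes below them. At the later time points both lay below, the list further so. Because the rule used both the T0 and the later levels, these differences are given without a test.

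Libraries with the same letter at a time point deviated together between treatments for most pairs of groups, though different letters were not compared. Each streptomycin library was also set against the mean of the other treatments' libraries of its time point and letter. These are the values that the rule used, seen by letter, and they are a description. For streptomycin T2 F the cytochalasin D library alone was used, since the rule leaves out calcium-free KSW T2 F. The log2 ratio of the summed level ran from 0.29 to 0.69 at T0, from -0.49 to -0.24 at T1, from -0.85 to -0.08 at T2 and from -0.50 to -0.12 at T3. The T2 value of -0.08 is that of letter F, and it is -0.17 with calcium-free KSW T2 F included. The median over the 80 genes of the difference in log2(CPM + 5) ran from 0.28 to 0.63 at T0, from -0.45 to -0.06 at T1, from -0.82 to 0.02 at T2 and from -0.37 to -0.02 at T3. The same median over the 5912 genes ran from -0.25 to 0.11 at T0 and from -0.30 to 0.06 at the later time points. At T0 the 80 genes lay above the 5912 in all 6 letters. At the later time points they lay below them in 15 of 18 libraries, the exceptions being T1 A, T1 D and T2 F.

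**Figure D2:**
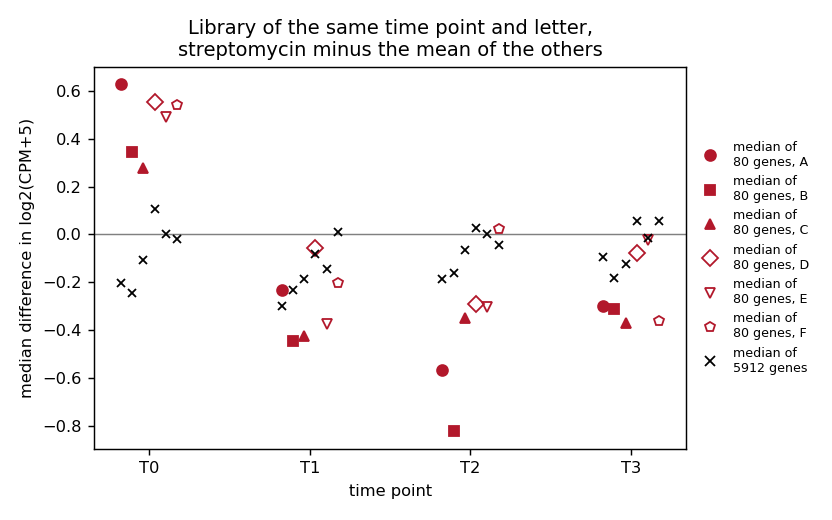
Median over genes of log2(CPM + 5) in each streptomycin library minus the mean of the calcium-free KSW and cytochalasin D libraries of the same time point and letter (vertical axis) by time point (horizontal axis); T2 F is set against cytochalasin D alone. Red markers are the 80 genes in the 6 letters and black crosses the 5912 genes; the red markers lie between 0.28 and 0.63 at T0, and at the later time points below their cross in 15 of 18 libraries.

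Single genes followed the sum with much scatter. Streptomycin T0 was the highest of the 14 groups for 24 of the 80 genes, and cytochalasin D T1 for 15. The lowest of the 14 groups was a later streptomycin group for 54 of the 80, namely T1 for 21, T2 for 19 and T3 for 14. No single later exposure group held the minimum for most genes. Among the 3 later streptomycin groups, T1 was lowest for 31 genes, T2 for 26 and T3 for 23. Relative to T0 the median gene stood at -0.63 at T1, -0.65 at T2 and -0.56 at T3, and 79, 78 and 79 of the 80 genes were below their T0 mean. Over the 5912 genes those medians were -0.08, 0.02 and -0.004. In calcium-free KSW the medians of the 80 genes relative to T0 were 0.14, 0.24, 0.12 and 0.10 at T1 to T4, and in cytochalasin D they were 0.18, 0.21, 0.20 and 0.18. The rule selected on these levels, and the highest and lowest groups were counted for the 80 genes alone. Nothing is therefore read from those counts.

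**Figure D3:**
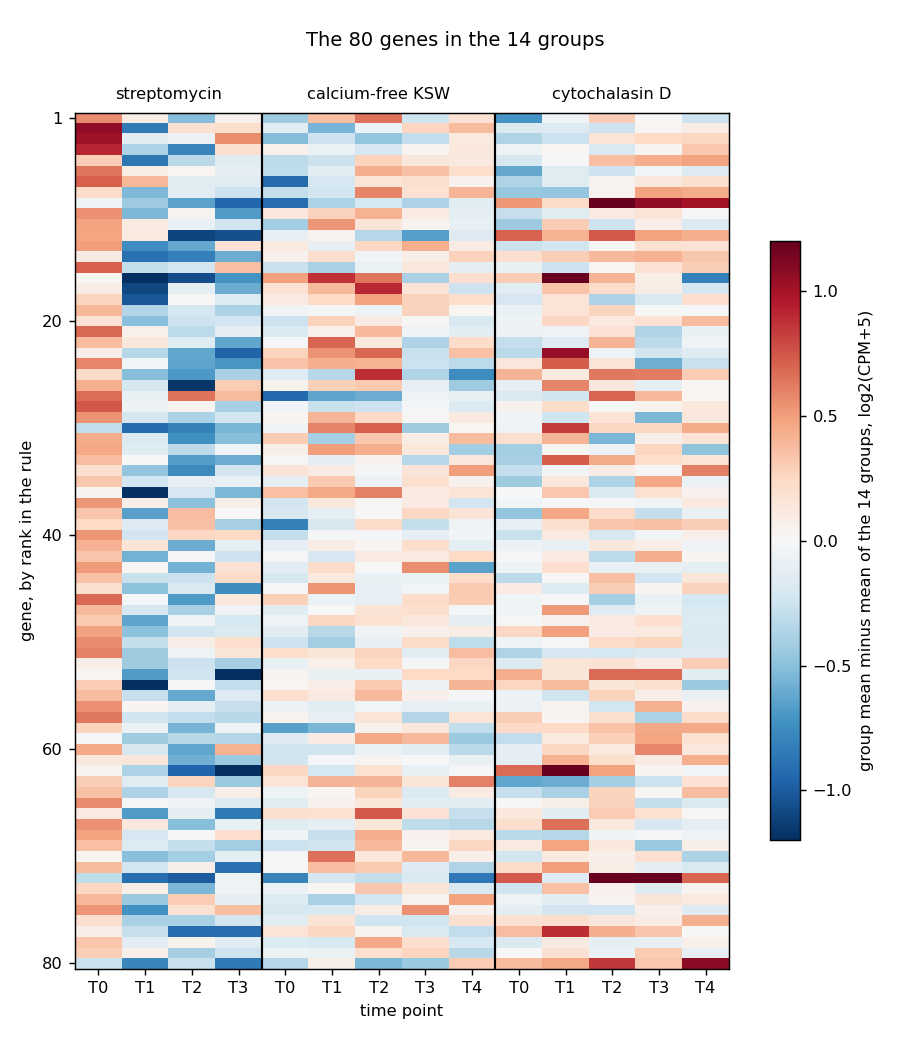
Group mean of log2(CPM + 5) minus the gene's mean over the 14 groups (colour, red above and blue below) for the 80 genes in the order of the rule (rows) and the 14 groups (columns). The streptomycin T0 column is mostly red and the 3 later streptomycin columns mostly blue, with the lowest group moving between T1, T2 and T3 from gene to gene.

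Library by library, the groups of a single gene overlapped. For 0 of the 80 genes did all 6 streptomycin T0 libraries lie above all 18 later ones, which occurred for 0.101% of the 5912 genes. For 25 of the 80 genes all 6 T0 libraries lay above the median of the later ones. The median gene had 15 of the 18 later libraries below its T0 median, and the range over the 80 genes was 10 to 18. These counts against a median were not made over the 5912 genes. The rule selected on the same levels, so nothing is read from them. The T0 maximum was shared among the letters unequally. Library D was the highest T0 library for 22 genes, A for 21, F for 15, B for 11, E for 6 and C for 5. T0 A was also the shallowest of the 84 libraries, with 194043 counts and 10708 genes detected.

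The gene with the lowest value of the rule, NVE8903, shows how few reads stand behind single values. It had 2, 4, 5, 4, 8 and 9 reads in the streptomycin T0 libraries A to F, 3, 6, 1, 5, 1 and 5 at T1, 0, 0, 8, 4, 3 and 7 at T2, and 3, 3, 2, 9, 4 and 5 at T3. Its streptomycin levels averaged 32.0 ± 11.8, 24.01 ± 14.2, 19.01 ± 18.8 and 21.0 ± 9.27 CPM from T0 to T3, so the later groups overlapped T0. In the other treatments NVE8903 had its lowest mean in the T0 groups, 15.0 ± 10.5 CPM in calcium-free KSW, and 11.5 ± 7.71 CPM with cytochalasin D, and its highest in the T2 groups, 33.1 ± 6.32 CPM (n = 5) and 25.6 ± 9.88 CPM. The later streptomycin means of NVE8903 lay within the range of its later means in the other treatments, 16.2 to 33.1 CPM. Its place in the list therefore rests mainly on a T0 level that was higher in streptomycin than in the other treatments.

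The second gene, NVE22001, had a wider streptomycin difference. Its levels in the T0 libraries A to F were 85.2, 53.5, 45.2, 29.4, 24.5 and 34.4 CPM. At T1 they were 0, 7.13, 6.67, 13.4, 8.05 and 16.8 CPM, from 0 to 3 reads each, and all 6 lay below the lowest T0 library. At T2 the 6 libraries ran from 7.28 to 53.2 CPM with a median of 19.5, and at T3 from 5.13 to 40.3 CPM with a median of 26.5, and both overlapped T0. In the other treatments its group means stayed between 10.5 and 25.9 CPM, and the lowest of them was calcium-free KSW T1.

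The contrast that selected the genes gave few calls in the test across all genes. In edgeR's quasi-likelihood test with Benjamini-Hochberg adjustment over all genes tested, 14 of the 80 genes passed the low-count filter. A gene that passes it through its T0 libraries alone has to differ from the later ones, so nothing is read from their share. Of those 14, 3 were lower at the later streptomycin time points than at T0 at an adjusted p under 0.05, where 1.92% of the 2862 genes tested were lower and 3.04% changed in either direction. Without the filter all 80 were tested, and 5 were lower, against 0.387% of 21448 genes. These counts describe the choice of the genes and support nothing. Here and below, the genes tested without the filter include genes under the 20 CPM minimum of the list. Their share of calls is therefore not that of genes of like abundance. The 3 genes called with the filter were NVE23468, NVE20336 and NVE21265. NVE23468 had the smallest p, with a log2 fold change of -0.82 ± 0.21 and an adjusted p of 0.0312 in edgeR's quasi-likelihood test, and it is named here after its values were seen, the others having larger fold changes. NVE20336 had 66.8, 78.4, 33.4, 40.2, 88.5 and 50.4 CPM at T1, 36.4, 70.5, 53.2, 112.03, 42.2 and 72.8 CPM at T2, and 45.4, 41.0, 47.8, 80.6, 51.7 and 17.0 CPM at T3, against 142, 84.1, 79.2, 170, 49.0 and 143.5 CPM at T0. Its highest 3 T0 libraries, A, D and F, lay above all 18 later libraries, and its T0 libraries B, C and E lay within their range. NVE21265 had 74.2 ± 35.5 CPM at T0, 57.9 ± 30.5 at T1, 20.2 ± 7.31 at T2 and 26.7 ± 23.1 at T3. The number of called genes of the list went to 0 when T0 library A, B or D was left out, to 1 when T0 E or T1 C was left out, and to 5 when T0 C was left out.

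The rule averaged the later time points, so the differences among T1, T2 and T3 are the comparisons that it did not use. They ask whether the level of the 80 genes depended on the length of exposure once streptomycin had been given. Between T3 and T1, 0 of the 14 genes tested passed an adjusted p of 0.05 in edgeR's quasi-likelihood test, where 1.26% of 2862 genes did, and DESeq2 also called 0. At an unadjusted p under 0.05, 1 gene was higher and 1 lower at T3, that is 2 of 14, where the share was 16.3% of all genes tested. Without the low-count filter, 0 of the 80 passed the adjusted threshold, against 0.536% of 21448 genes, and 5 had an unadjusted p under 0.05, 3 of them higher at T3, against 7.21%. The median log2 fold change of the 80 genes was 0.11 in that fit, where the median over the 5912 genes was 0.10. The median standard error of a single gene's log2 fold change was 0.46, so changes of this size in a single gene were not detectable at this depth.

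NVE12519 had the smallest p between T3 and T1. Its levels were 96.5, 66.7, 65.7, 52.4, 60.3 and 107 CPM in the T3 libraries, against 33.4, 42.8, 53.4, 20.1, 48.3 and 11.2 CPM in the T1 libraries. The lowest T3 library lay just under the highest T1 library and the others did not overlap. The log2 fold change was 1.04 ± 0.31 (SE) and did not pass the threshold, with an adjusted p of 0.0763 in edgeR's quasi-likelihood test. T3 thus had 74.8 ± 21.9 CPM, close to the 83.5 ± 16.6 CPM of streptomycin T0, and T1 had 34.9 ± 16.5 CPM.

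Between T2 and T1, 0 of the 14 genes passed, as did 0% of the 2862 genes tested with edgeR, and DESeq2 called 7 genes, none of them in the list. An unadjusted p under 0.05 was reached by 1 gene that was higher and 1 that was lower at T2, against 11.1% of all genes tested. Without the low-count filter, 1 of the 80 genes passed, against 0.275% of 21448 genes, and 8 had an unadjusted p under 0.05, against 6.19%. The 1 gene was NVE21265. Its T2 libraries held 29.1, 7.84, 17.8, 23.3, 18.7 and 24.3 CPM, and its T1 libraries held 25.1, 78.4, 26.7, 87.1, 40.2 and 89.6 CPM. In T2 it had 1 to 5 reads per library, and 2 of the 6 T1 libraries, A and C, overlapped the T2 range. The log2 fold change was -1.59 ± 0.48 with an adjusted p of 0.233 in edgeR's quasi-likelihood test with the filter, and -1.502 with an adjusted p of 0.0398 without it.

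**Figure D4:**
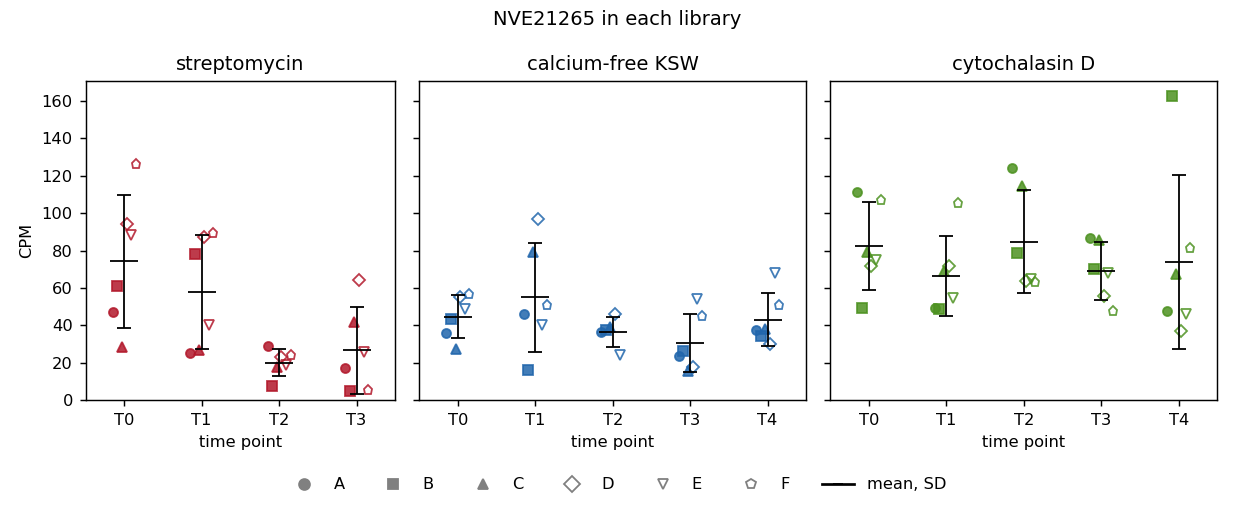
CPM of NVE21265 (vertical axis) in each library by time point (horizontal axis), 1 panel per treatment, with markers for the letters A to F and bars for the group mean and SD. In streptomycin the means are 57.9 CPM at T1, 20.2 at T2 and 26.7 at T3, and the T3 libraries spread from 5.13 to 64.5 CPM.

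Exposure length in streptomycin overlapped with the numbering of the sequenced samples. The sample numbers in the titles fall in a lower range for all streptomycin T0 and T1 libraries and for T2 A and B, and in a higher range for T2 C to F, all of T3 and all cytochalasin D libraries. What the numbers stand for is not given. Within T2, the summed level of the 80 genes was 2267 to 2617 CPM in the 4 libraries of the higher range, against 1614 to 1930 CPM in the 2 of the lower range. The number of the 80 genes at 0 reads was 1 or 2 in the higher range and 12 and 20 in the lower range. The genes detected in all were 13247 to 13892 in the higher range and 11559 to 11637 in the lower range. Between T3 and T1 no library of one group shares a range with the other, so exposure length and number range cannot be told apart there. With the range as a term in the fit, 0 of the 14 genes tested passed for later time points against T0, and 11 genes of all those tested passed, against 87 without the term.

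The difference between T3 and T1 was next compared between treatments in 1 model. The fold change from T1 to T3 in streptomycin minus that in calcium-free KSW passed for 0 of 56 genes of the list tested with edgeR, as for 0% of 5273 genes, and DESeq2 called 1 gene outside the list. An unadjusted p under 0.05 was reached by 3 of the 56, against 5.5% of all genes. NVE6935 had the smallest p, with a difference of -1.22 ± 0.55 on the log2 scale and an adjusted p of 0.892 in edgeR's quasi-likelihood test. Its level was 22.9 ± 8.20 CPM at T3 and 36.2 ± 14.5 CPM at T1 in streptomycin, and 31.6 ± 14.2 CPM at T3 and 22.5 ± 10.2 CPM at T1 in calcium-free KSW. Against cytochalasin D, 0 of 56 passed, as did 0% of 5273 genes, DESeq2 called 9 genes outside the list, and 2 of the 56 had an unadjusted p under 0.05, against 6.92%. NVE21265 came first, at -1.22 ± 0.51 with an adjusted p of 0.607 in edgeR's quasi-likelihood test. Its cytochalasin D levels were 69.0 ± 15.5 CPM at T3 and 66.5 ± 21.5 CPM at T1. Equal time point numbers stand for different things in streptomycin and in the other treatments, so these contrasts set the labels side by side and not equal times.

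Within the other treatments, the step from T1 to T3 gave few calls among the 80 genes. In calcium-free KSW, 0 of 36 genes tested passed in edgeR's test, where 0.112% of 4473 genes did, and DESeq2 also called 0 of the list. Of the 36, 7 had an unadjusted p under 0.05, 3 higher and 4 lower at T3, against 11.4%. Without the filter 1 of the 80 passed, lower at T3, against 0.325% of 22488 genes. NVE12519 had the smallest p, at 85.01 ± 16.8 CPM at T3 and 49.9 ± 15.9 CPM at T1. Its log2 fold change of 0.82 ± 0.26 had an adjusted p of 0.247 in edgeR's quasi-likelihood test.

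In cytochalasin D, 1 of 46 genes tested passed, and it was lower at T3, where 1.32% of 4534 genes were lower and 2.01% changed in either direction. An unadjusted p under 0.05 was reached by 7 of the 46, against 14.8%, and without the filter 6 of the 80 passed, 1 higher and 5 lower, against 1.08% of 22600 genes. Those 22600 genes again include genes under the CPM minimum of the list. The number of called genes of the list was 4 without T1 library A and 2 without T0 C, T1 B, T3 D or T3 E, and 3 with the letter as a replicate block. The called gene was NVE15859. Its T3 libraries A to F held 21.7, 29.5, 21.4, 36.0, 27.2 and 53.2 CPM, and its T1 libraries held 52.6, 84.3, 80.7, 99.3, 109 and 79.96 CPM. Only T3 F, at 53.2 CPM, reached the lowest T1 library, A. The log2 fold change was -1.40 ± 0.27 with an adjusted p of 0.00669 in edgeR's quasi-likelihood test, and the adjusted p stayed at or below 0.0213 in each alternative run, leaving out each cytochalasin D library in turn included. In calcium-free KSW the same gene had 39.6 ± 6.23 CPM at T3 and 72.2 ± 35.6 CPM at T1, a log2 fold change of -0.82 ± 0.29 with an adjusted p of 0.298 in edgeR's test. In streptomycin NVE15859 had 76.4 ± 21.1 CPM at T0, 49.9 ± 22.6 at T1, 31.3 ± 14.2 at T2 and 28.9 ± 11.2 at T3. Between T3 and T1 in streptomycin its log2 fold change was -0.69 ± 0.37, with an adjusted p of 0.641 in edgeR's test without the filter. A gene chosen for its later difference from T0 in streptomycin was thus lower at T3 than at T1 in cytochalasin D. There its T1 level, 84.3 ± 19.3 CPM, stood above its T0 level, 55.1 ± 15.9 CPM. Its cytochalasin D means at T3 and T4, 31.5 and 41.6 CPM, lay below that T0 level. The calcium-free KSW means at T3 and T4, 39.6 and 38.6 CPM, were also below the T0 mean of 64.7 CPM. Means below T0 were thus not confined to streptomycin for this gene. Its averaged differences stayed above the rule's -0.3, at -0.27 for calcium-free KSW and -0.13 for cytochalasin D.

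**Figure D5:**
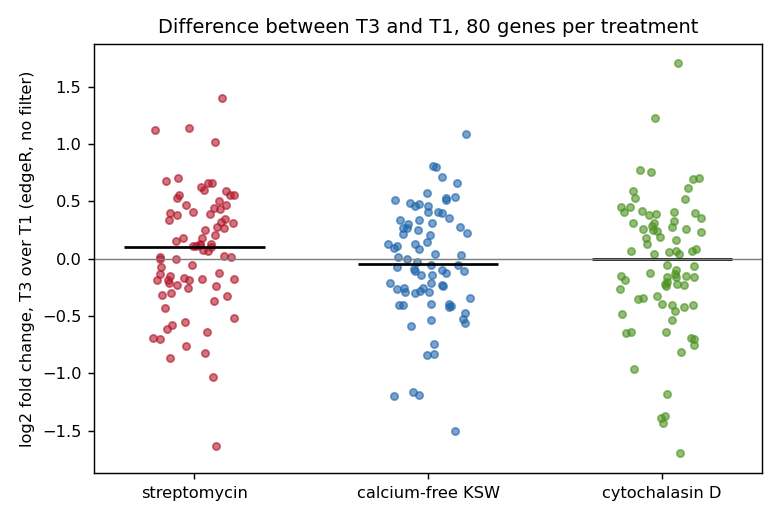
Log2 fold change of T3 over T1 from edgeR without the low-count filter (vertical axis) for each of the 80 genes in the 3 treatments (horizontal axis, points spread sideways for legibility), with a bar at the median. The points spread about 0 in each treatment, and the streptomycin median is 0.11, that of calcium-free KSW -0.04 and that of cytochalasin D -0.01.

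The letters divide into A to C and D to F, and this split is balanced over the time points and was not used by the rule. The summed level of the 80 genes was lower in the A to C library for 11 of 12 letter pairs (A and D, B and E, or C and F of a time point) in streptomycin, for 4 of 14 in calcium-free KSW and for 11 of 15 with cytochalasin D. In streptomycin, A to C averaged 3467 CPM and D to F 3656 CPM at T0. The means of A to C and of D to F were 2052 and 2329 CPM at T1, 2010 and 2452 CPM at T2, and 2062 and 2373 CPM at T3. Depth moved with this split. The median streptomycin library had 252574 counts and 11902 genes detected in A to C, against 290328 counts and 13362 genes in D to F, and the 10 most abundant genes took 40.7% of its counts in A to C, against 33.5% in D to F. The part of these differences in the result was not tested. In edgeR's test with time point in the model, 0 of 14 genes of the list passed, where 0.943% of 2862 genes did, and DESeq2 called 0 of the list. An unadjusted p under 0.05 was reached by 2 of the 14, both lower in A to C, against 9.99%. Without the filter 0 of the 80 passed, against 0.214% of 21448 genes, and 6 had an unadjusted p under 0.05, all lower in A to C, against 5.71%. Of the 80 genes, 77.5% had a negative log2 fold change of A to C over D to F, with a median of -0.19, and of the 5912 genes 66.5% did, with a median of -0.10. NVE21265 had the smallest p, at -0.75 ± 0.30 with an adjusted p of 0.358 in edgeR's quasi-likelihood test.

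Whether the difference between later time points and T0 was itself unlike in A to C and D to F was tested as an interaction in streptomycin. It passed for 0 of the 14 genes tested with edgeR, as for 0% of 2862 genes, DESeq2 called 0 in all, and 0 of the 14 had an unadjusted p under 0.05, against 2.76%. The smallest p belonged to NVE3316, at -0.59 ± 0.49 on the log2 scale with an adjusted p of 1.00 in edgeR's quasi-likelihood test. Its streptomycin levels were 68.0 ± 17.2 CPM at T0, 50.4 ± 21.2 at T1, 32.1 ± 12.7 at T2 and 51.2 ± 24.5 at T3.

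The letter pairs were also set side by side at T0. The pair A and D had the highest summed level of the 80 genes at T0 in each treatment, with 4214 CPM in streptomycin, 2888 CPM in calcium-free KSW, and 2791 CPM with cytochalasin D. The pairs B and E and C and F had 3262 and 3209 CPM in streptomycin, 2351 and 2325 CPM in calcium-free KSW, and 2520 and 2438 CPM in cytochalasin D. The rule used the streptomycin T0 levels. Library D was the highest of them for 22 of the 80 genes and A for 21. Nothing is therefore read from the rank in streptomycin. Pair sums were made for the 80 genes alone, so the ranks do not show a pattern particular to the list. At the later time points no pair was highest throughout. In calcium-free KSW at T0 the rank of the pair A and D rested on library D, at 3248 CPM. Library A, at 2529 CPM, lay below B, at 2591 CPM. Whether the libraries of a pair are independent was not tested. If they are not, the standard errors and p-values above are too small.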

How the data were processed

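The authors deposited 1 table of read counts per gene model, unscaled, with 23510 genes and 84 columns, each matched to 1 sample by its title. Per the labels, total RNA went through a tag-based library protocol. Bowtie2 is listed in the submitters' processing notes. For its version, the genome build, the counting tool and the use of strand the entry is "not given in the sources used here", so near-identical, overlapping or antisense genes may have been split or joined. Columns of other samples numbered 0.

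The 80 genes and all comparisons were chosen with earlier results of these data known. The rule left out calcium-free KSW T2 F. The deposited counts were tested with edgeR 4.0.16 (R 4.3.3; glmQLFit and glmQLFTest after TMM scaling and a filterByExpr low-count filter), with 1 mean per group, Benjamini-Hochberg adjustment over all genes tested and a threshold of 0.05. Streptomycin, calcium-free KSW and cytochalasin D were fitted separately, and differences between treatments came from 83 libraries. SEs were derived from the F statistic. The edgeR fit of streptomycin T3 against T1 was tried on simulated counts with known changes, and the other comparisons and the rule were not. Named are the 2 genes with the lowest rule value and, per comparison, up to 2 higher and 2 lower genes past the threshold or the gene with the smallest p.

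Alternatives were DESeq2 1.42.0, its size factors in edgeR, no low-count filter, the letter as a replicate block, letter pairs summed, 1 fit of all 84 libraries, the sample number range as a term, leaving out single libraries and other scales for the rule. Leaving out cytochalasin D libraries, and calcium-free KSW T2 F in the ratio by letter, were added after the data were seen. For letters to pair the libraries of 2 groups, each same-letter correlation of deviations had to exceed 0.1. This held for 0 of 26 pairs of groups inside a treatment and, between treatments at 1 time point, for 10 of 13. Libraries of different letters were not compared, so the correlations do not show that the letters pair the libraries. Total counts had a median of 312264 per library.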

Additional observations from a re-analysis of the deposited data

Results flagged for a closer look

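The 56 sets of libraries examined were the summed level of the 80 genes in each group, NVE8903 and NVE22001 in each group, and the other named genes in the groups of their comparisons. In 1 of them a library stood far from the rest, and chance alone gives about 1 in 20. NVE8903 had 43.4 CPM in cytochalasin D T3 library A, whereas the other 5 libraries of that group ran from 9.06 to 19.98 CPM.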

How the results depend on the processing

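The numbers of genes of the list that passed changed as follows, and the cause was not tested except where fewer samples or a wider test is the alternative itself. Without the low-count filter, which tests all 80 genes, 1 passed between streptomycin T2 and T1, 1 between calcium-free KSW T3 and T1, 6 between cytochalasin D T3 and T1 and 5 between later streptomycin time points and T0. For cytochalasin D T3 against T1, where 1 passed, 3 passed with the replicate block, 3 with letter pairs summed, 2 in 1 fit of all 84 libraries and 1 to 4 when single libraries were left out. For later streptomycin time points against T0, where 3 passed, 1 passed with letter pairs summed, 0 with the sample number range as a term and 0 to 5 when single libraries were left out. Summing letter pairs let more genes through the low-count filter. The 1 and the 3 are thus not out of the same set of genes tested. The replicate block changed no other number of the list. Membership shared 34 of the 80 genes with TMM-scaled CPM on full library totals, 62 with log2(CPM + 1) and 71 with log2(CPM + 10). It shared 47 to 63 when a streptomycin T0 library was left out. Over all genes tested, streptomycin T3 against T1 gave 36 calls, and 115 without the filter, 55 with the block, 14 with letter pairs summed, 2 in the fit of all 84 libraries, 0 with the number range and 3 to 45 with libraries left out (3 without T1 E). Streptomycin T2 against T1 gave 0, and 7 with DESeq2, 59 without the filter, 16 with the block, 1 with pairs summed and 0 to 3 with libraries left out. The difference of streptomycin from calcium-free KSW gave 0, and 1 with DESeq2 and 1 without the filter, and that from cytochalasin D gave 0, and 9 with DESeq2, 4 without the filter and 1 with the block. Calcium-free KSW T3 against T1 gave 5, and 73 without the filter, 21 with the block, 0 with pairs summed and 1 in the fit of all 84 libraries. Cytochalasin D T3 against T1 called 2.01% of the genes tested, and 1.08% without the filter (244 genes), 3.26% with the block and 0.951% to 2.9% with libraries left out. Letters A to C against D to F gave 27, and 46 without the filter and 8 in the fit of all 84 libraries, and their interaction gave 0, and 2 without the filter. Later streptomycin time points against T0 gave 87 (3.04% of the genes tested), and 23 (0.437%) with pairs summed and 48 (0.935%) in the fit of all 84 libraries. The same contrast gave 11 (0.384%) with the number range, 36 (1.2%) without T0 A and 33 (1.11%) without T0 D. Letter pairs were not summed for comparisons of A to C with D to F. For named genes, of the values under alternatives, 202 kept their direction and side of the threshold, 34 lost the threshold, 1 gained it and 0 turned round. Only results past the threshold in the main fit could lose it. These were NVE15859 for cytochalasin D T3 against T1, and NVE21265 and NVE20336 for later time points against T0. All 34 losses fell on NVE21265 and NVE20336, so the 202 do not show that their calls were stable. Depth limits single genes most, since a median gene of the list had 2 to 8 reads in a streptomycin library.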
